A study of Mus musculus with 6 samples.

Results

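The genes described here are 10 genes that mark blood monocytes, read in 6 mouse RNA-seq libraries labelled as sorted basophils. They were chosen by name from a table of 55401 Ensembl genes and all 10 had a row. Shared by both monocyte types are Lyz2 (lysozyme), Csf1r (the receptor for the growth factor CSF1) and Cebpb (a transcription factor). The classical genes are Ccr2, F13a1 and Chil3, and the non-classical genes are Cx3cr1, Ace, Treml4 and Spn.

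There are 6 libraries in 2 sets of 3, which the labels call A and B. All mice were wild-type, and the cells were live, CD45+, lineage-negative, CD49b+ and positive for FcεRIα or IgE when sorted. In the study's protocol mice received MC903, a vitamin D analogue, on both ears daily (2 nmol in 10 µL of ethanol, day 0 to day 6), or ethanol alone, and the labels do not say which set is which. The labels give neither the age of the mice nor whether a library holds 1 animal or a pool, so p-values cover only the spread among these libraries, and that spread may be technical. Blood is the tissue of each sample label, whereas the design text speaks of ear skin.

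Mouse monocytes circulate in 2 main forms. Classical monocytes carry Ly6C and the chemokine receptor CCR2, leave the marrow through CCR2 and enter inflamed tissue, while non-classical monocytes carry little Ly6C and much CX3CR1 and patrol the vessel wall. Both depend on CSF1R to different degrees, and C/EBPβ and NR4A1 are needed for the non-classical form.

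The label was checked against basophil genes before the results. Mcpt8, a protease stored in basophil granules, was at 0.762, 0.681 and 1.28 CPM (each count relative to the sum of its library, on the usual scale) in set A and 1173, 872 and 478 CPM in set B. Fcer1a, the IgE-binding chain of the receptor used in the sort, had 4, 0 and 0 counts in A. Of the 10 basophil markers 8 were tested, and 5 of these were higher in every B library than in any A library. Among all tested genes the share was 10.2%. Others were not: Gata2 ran from 0.109 to 116 CPM over the A libraries and from 1.15 to 42.8 over those of B. Il3ra reached 42.9 CPM in A replicate 2 and at most 9.32 in B. The basophil label was therefore not borne out by Mcpt8 and Fcer1a in set A. Set B is not read as basophils alone, since each of its libraries held at least 22600 CPM of Lyz2. Differences between the sets are not read as changes within 1 cell type. Total counts were 46137963 to 63956911 per library, so 3 counts stood for 0.0469 to 0.0650 CPM. In bulk RNA fewer cells of a type and less RNA per cell cannot be told apart.

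Lysozyme and Chil3 each have a near copy in the mouse genome, which bears on how far their counts can be read. The first 150 coding bases are shown for both pairs, from GENCODE M21 transcripts (GRCm38), 5′ to 3′, with the bases that differ within a pair in capitals, since 150 bases is the read length.
Lyz2: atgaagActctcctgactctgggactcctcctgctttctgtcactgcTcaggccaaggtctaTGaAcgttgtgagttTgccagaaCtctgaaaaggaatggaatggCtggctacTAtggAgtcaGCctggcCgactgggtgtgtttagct
Lyz1: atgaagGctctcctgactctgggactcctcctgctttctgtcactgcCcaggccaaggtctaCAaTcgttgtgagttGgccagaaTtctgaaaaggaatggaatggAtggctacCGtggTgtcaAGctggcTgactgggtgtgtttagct
Chil3: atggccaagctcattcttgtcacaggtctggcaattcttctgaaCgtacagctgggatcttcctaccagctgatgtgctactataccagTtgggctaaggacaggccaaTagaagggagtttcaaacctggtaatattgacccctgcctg
Chil4: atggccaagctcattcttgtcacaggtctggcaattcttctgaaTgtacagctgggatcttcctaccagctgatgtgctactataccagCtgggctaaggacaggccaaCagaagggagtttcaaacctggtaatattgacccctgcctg
Lyz2 and Lyz1 differ at 14 of these bases and Chil3 and Chil4 at 3. Over the whole coding sequence the identity was 95.0% for the lysozymes and 94.4% for the chitinase-like genes. The longest identical coding stretches were 118 and 136 bases, so every aligned stretch of 150 coding bases holds a difference. The sources used here do not say how reads that fit both copies were counted.

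Lyz2, an enzyme that cuts bacterial cell walls and is made by monocytes, macrophages and neutrophils, had the highest count of all genes in each of the 6 libraries. Set A held 39756, 32661 and 32015 CPM of it, and set B 22656, 22600 and 29746 CPM. Every B library lay below every A library, and the closest pair was A replicate 3 and B replicate 3. By edgeR's quasi-likelihood test the fitted log2 difference of B against A was -0.58 (SE 0.19, adjusted p = 0.523), which did not pass the threshold of 0.05. DESeq2 called Lyz2 lower (log2 difference -0.70, adjusted p = 0.0153), but not when it ran with no filter on low counts (adjusted p = 1.000). Limma-voom did not call it (adjusted p = 0.467). Its near copy Lyz1, best known from Paneth cells of the gut, stood at 147, 224 and 125 CPM in A and 43.2, 40.5 and 52.4 in B, with the same lack of overlap (log2 difference -1.97, SE 0.62, edgeR adjusted p = 0.508, DESeq2 adjusted p = 0.0105 and, with no filter, 0.739).

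Csf1r, which carries the survival signal of monocytes, measured 547, 810 and 698 CPM in A and 521, 462 and 572 in B. The sets overlapped, since B replicate 3 lay above A replicate 1, and the log2 difference was -0.49 (SE 0.23, edgeR adjusted p = 0.929). Cebpb was the steadiest of the 10, at 1173, 891 and 1103 CPM in A and 894, 1190 and 1194 in B, so that its highest library was 1.34 times its lowest. Its log2 difference was -0.06 (SE 0.22, edgeR adjusted p = 1.000), and its sign turned with library size alone as the scaling (0.06). The ligands of CSF1R were scarce: Csf1 had 0, 0.0946 and 8.60 CPM in A and 0.241, 39.3 and 1.91 in B, and Il34 exceeded 1 CPM only in B replicate 2 (23.5 CPM).

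The classical genes did not move together. Chil3 encodes a chitinase-like protein (Ym1) made by classical monocytes and their precursors, by neutrophils and by activated macrophages. The A libraries held 38.7, 1.02 and 71.6 CPM of it (37.1 ± 35.3, SD, n = 3), and the B libraries 712, 555 and 592 CPM (619 ± 81.8, SD, n = 3). All 3 B libraries stood far above the highest A library, and A replicate 2 had only 54 counts. The log2 difference was 3.98 (SE 1.28), the largest among the 9 members tested, with adjusted p = 0.508 by edgeR, 0.0276 by DESeq2 (0.187 with no filter) and 0.311 by limma-voom. Chil4 had 3 counts or fewer in every library.

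Ccr2, the receptor for the chemokine CCL2, had 133, 30.8 and 53.1 CPM in A and 53.5, 80.6 and 41.8 in B. The sets overlapped widely and A replicate 1 stood highest. The log2 difference was -0.46 (SE 1.04, edgeR adjusted p = 1.000) and became 0.43 without that library. Ccl2 itself stayed under 1 CPM in all 6 libraries.

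F13a1, the catalytic subunit of coagulation factor XIII, found in classical monocytes and platelets, was present in 2 libraries. It had 6752 counts (136 CPM) in B replicate 1 and 1015 counts (15.9 CPM) in B replicate 3, against 8 counts in B replicate 2 and 4, 0 and 0 in A. It did not pass the filter on low counts, and with no filter it did not reach the threshold by edgeR (adjusted p = 0.416) but did by DESeq2 (adjusted p = 0.00206). The 9 platelet markers summed to 1165, 1684 and 1381 CPM in A and 1038, 656 and 610 in B, where B replicate 1, the library with most F13a1, had the highest sum of its set and lay below every A library. The part of platelets in the level of F13a1 was not tested.

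The non-classical genes were present in all 6 libraries. Treml4, a receptor of the TREM family typical of non-classical monocytes, stood at 1164, 1233 and 961 CPM in A and 860, 1096 and 1177 in B. The sets overlapped and the highest library was 1.43 times the lowest, against a median of 3.83 among the tested genes that average 100 to 1000 CPM and have no library at 0, and 1.83 among those above 1000. The log2 difference was -0.21 (SE 0.22, edgeR adjusted p = 1.000).

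Spn (CD43, a sialic acid-rich surface protein also found on T and NK cells) measured 236, 74.7 and 160 CPM in A and 94.0, 147 and 161 in B. No separation of the sets was seen (log2 difference -0.35, SE 0.60, edgeR adjusted p = 1.000). The 10 NK cell markers summed to 2682, 896 and 2097 CPM in A and 1612, 1029 and 1044 in B, and no single order held: in A the library with the highest sum had the highest Spn, while in B it had the lowest. The part of NK cells in the level of Spn was not tested.

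Ace, the enzyme that makes angiotensin II, had 65.8, 53.8 and 82.9 CPM in A and 15.4, 111 and 148 in B. The B libraries lay on both sides of all A libraries (log2 difference 0.35, SE 1.02, edgeR adjusted p = 1.000). Agt, which encodes the precursor of angiotensin, was at 78.3 and 46.3 CPM in B replicates 1 and 2 and under 0.3 CPM in the other 4 libraries (edgeR adjusted p = 0.762, DESeq2 adjusted p = 0.00202).

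Cx3cr1, the fractalkine receptor, stood at 2.61, 55.9 and 31.0 CPM in A and 6.07, 22.0 and 419 in B. One library, B replicate 3, stood far above the rest, and the highest value was 160 times the lowest. The log2 difference of 2.31 (SE 1.80, edgeR adjusted p = 1.000) became -1.14 without that library. Its ligand Cx3cl1 had 2223 counts in B replicate 1 and 0 in the other 5.

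**Figure D1:**
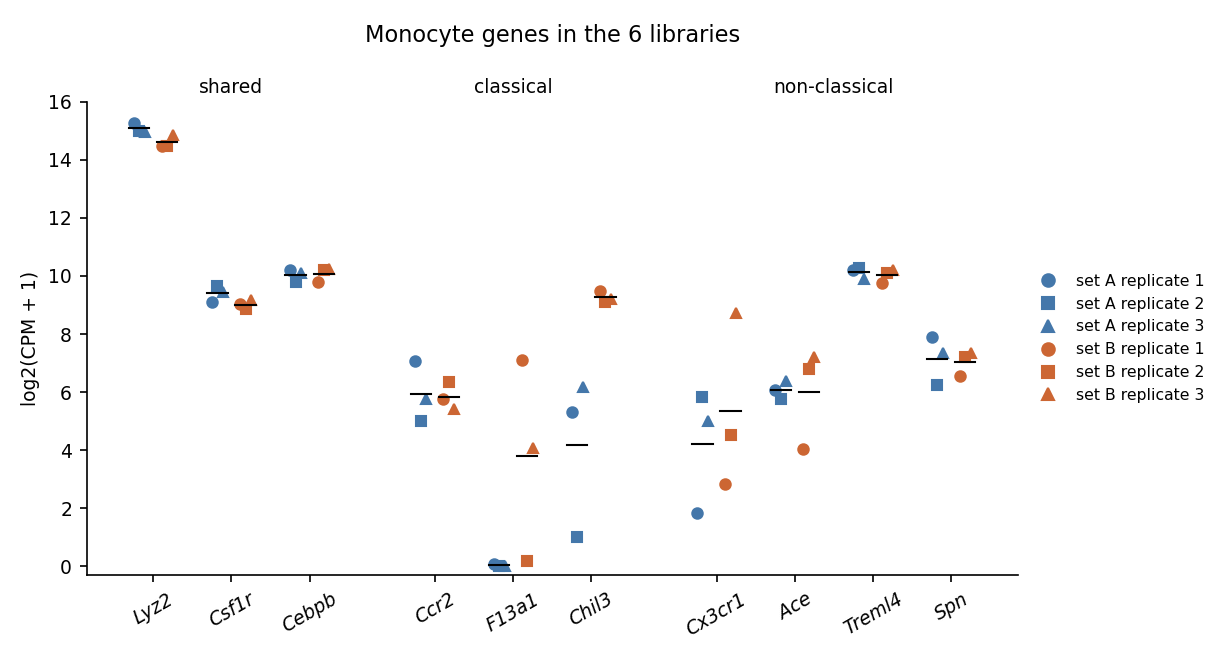
Level of each monocyte gene in each library, as log2(CPM + 1), grouped as shared, classical and non-classical genes; each point is 1 library and the short lines are the means of the 3 libraries of a set. Lyz2, Cebpb, Csf1r and Treml4 stay within a narrow band, though Lyz2 is lower in every B library. Chil3 is higher in every B library, Cx3cr1 stands out in B replicate 3, and F13a1 in B replicates 1 and 3.

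Of the 10 members, 9 could be tested and 0 passed by edgeR, against 0.0217% of the 9196 genes tested (2 genes, Mcpt8 and Prss34). At an unadjusted p under 0.05 edgeR had 1 member higher in B, Chil3, and 1 lower, Lyz2, where 5.05% of all tested genes were higher and 1.32% lower. DESeq2 called the same 2, with 5.34% of all tested genes called higher and 1.13% lower. With no filter on low counts DESeq2 called neither of them and called 1 member, F13a1, higher in B, where 11.8% of the 9416 genes given an adjusted p were higher and 1.08% lower. Limma-voom called 0 members, with 2.12% of all tested genes called higher and 0.0761% lower. The sets did not overlap for Chil3, as for 10.2% of all tested genes that were higher in B, nor for Lyz2, as for 3.91% that were lower. With 1 gene of 9 in each direction, nothing particular to these genes is read from the counts. Their median log2 difference was -0.21, beside -0.06 over all tested genes, and 3 of the 9 lay above 0, as did 48.0% of all tested genes.

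**Figure D2:**
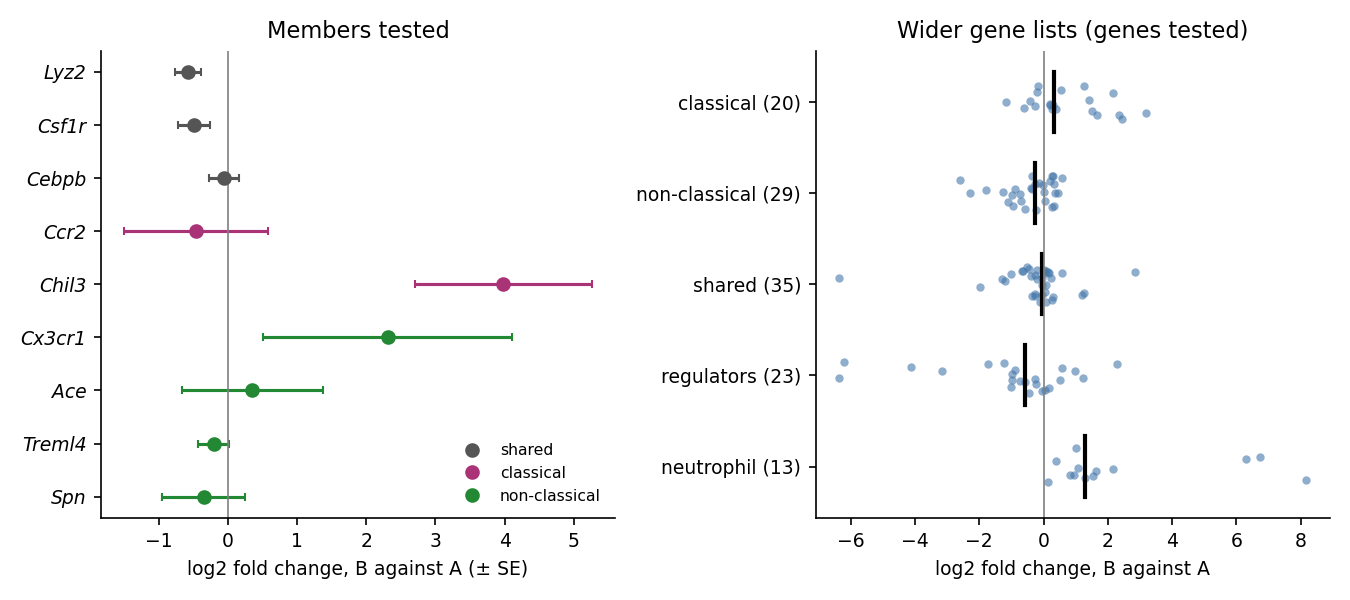
Fitted log2 fold change of set B against set A by edgeR; left, the 9 members tested with their standard errors, and right, each tested gene of 5 wider lists as a point with the list's median as a black line (the number of genes tested is in brackets). Chil3 lies farthest from 0 among the members at 3.98, and the neutrophil list has all 13 points above 0.

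Levels can be compared between genes only per length, and CPM was therefore divided by the length of the longest protein-coding transcript. By the median of the 6 libraries the order was Lyz2 (23465 CPM per kb), Cebpb (757), Treml4 (648), Chil3 (204), Csf1r (119), Spn (41.0), Ace (15.1), Ccr2 (9.31), Cx3cr1 (5.89) and F13a1 (0.0263). By transcript length Lyz2 stood above Cebpb, Treml4 above Chil3 and Csf1r above Spn with no overlap of their ranges. Ranges were compared on this scale only. The ranges of the other neighbours in that order overlapped, so those places are not fixed by these data. Chil3 ran from 0.664 to 462 CPM per kb, since it was low in A and high in B. With coding length in place of transcript length Treml4 came before Cebpb, and Ccr2 and Cx3cr1 came before Ace. On both scales Treml4, a non-classical gene, had a higher median than each of the classical genes.

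**Figure D3:**
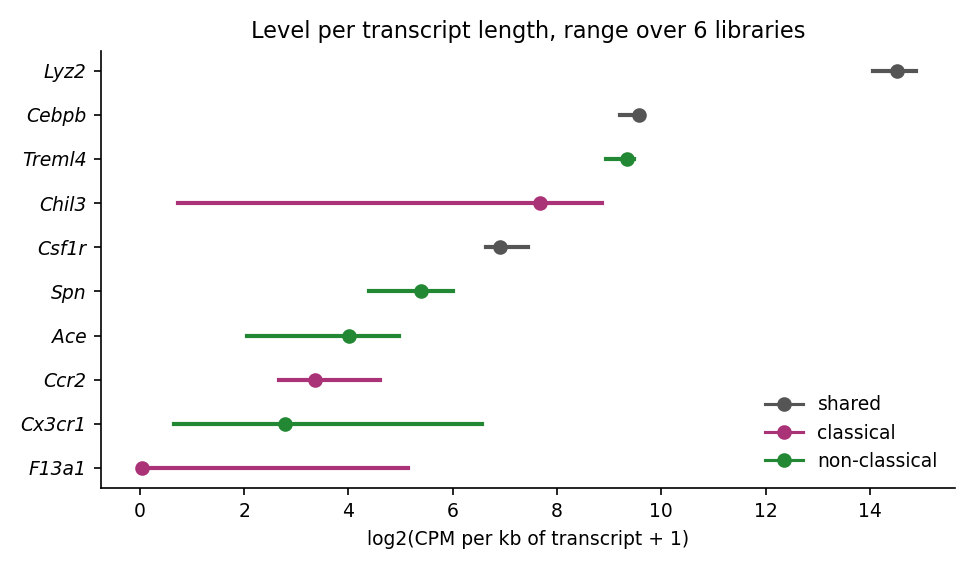
Level of each gene per kb of its longest protein-coding transcript, as log2(CPM per kb + 1); the point is the median and the line runs from the lowest to the highest of the 6 libraries. Treml4 lies between 493 and 707 CPM per kb, above Chil3 in every library.

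The summed classical genes came to 172, 31.8 and 125 CPM in the A libraries and 901, 636 and 649 in those of B. The summed non-classical genes came to 1468, 1418 and 1235 CPM and to 975, 1377 and 1906 CPM. The first sum separated the sets and the second did not. The log2 ratio of the classical to the non-classical sum, with 1 CPM added to each, averaged -3.94 ± 1.30 over the A libraries and -0.93 ± 0.74 over the B libraries (SD, n = 3 each), a difference of 3.01 without overlap, for which no test was made. Chil3 made up 3.21% to 57.4% of the classical sum in A and 79.0% to 91.1% in B, and Treml4 made up 61.8% to 88.2% of the non-classical sum over all libraries. Without Chil3 and Treml4 the ratio averaged -2.03 ± 0.73 and -1.57 ± 2.18 (SD, n = 3 each), with overlap and a difference of 0.45. Without these 2 genes the ratio no longer separated the sets.

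Chil3 was set beside markers of other cells that make it. The 14 neutrophil markers summed to 2473, 7671 and 10077 CPM in A and 23790, 12707 and 13210 in B, without overlap, and all 13 tested had a fitted value above 0 (median 1.29), beside 48.0% of all tested genes. By edgeR 0 passed, and 5 of the 13 were higher at an unadjusted p under 0.05, beside 5.05% of all tested genes. DESeq2 called 4 of them higher, beside 5.34%. With no filter it called 3 of the 12 given an adjusted p, beside 11.8%. Of the 13 tested, 5 were higher in B without overlap, beside 10.2% of all tested genes. The largest part of the sum was S100a8, at 1259, 4455 and 5378 CPM in A and 13750, 7357 and 7251 in B. Ly6g, 1 of the 14 markers, had 0 counts in all 6 libraries. Among the secondary granule genes, Camp and Ngp ran from 0.581 to 1.97 CPM in A and from 34.7 to 329 in B. Ltf had at most 0.170 CPM in A and 119, 0.423 and 15.9 in B, and Lcn2 overlapped, with 117 CPM in A replicate 3 and 52.6 in B replicate 2. Both Chil3 and the neutrophil sum were higher in every B library than in any A library, and the part of neutrophils in Chil3 was not tested. Within A the 2 orders differed, since A replicate 2 had a higher sum than A replicate 1 (7671 against 2473 CPM) and less Chil3 (1.02 against 38.7 CPM). A replicate 3 and B replicate 2 had neutrophil sums of 10077 and 12707 CPM and Chil3 at 71.6 and 555 CPM. In the same order the secondary granule genes stood at 0.672 and 34.7 CPM for Camp and 1.97 and 40.8 for Ngp. Ltf had 0.0867 and 0.423 CPM, and Lcn2 ran the other way (117 and 52.6 CPM). Of the 12 macrophage genes 5 were tested and 0 passed by edgeR (0 at an unadjusted p under 0.05). Of these 5, C1qb, C1qc and Trem2 had higher values in B without overlap, as did 10.2% of all tested genes. Apoe had lower values without overlap (5768 to 6113 CPM in A, 1111 to 5120 in B), as did 3.91%, and DESeq2 called it lower (adjusted p = 0.0122), whereas with no filter DESeq2 called 0 of the macrophage genes. Cd163, Vsig4 and Marco had 0 counts throughout.

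**Figure D4:**
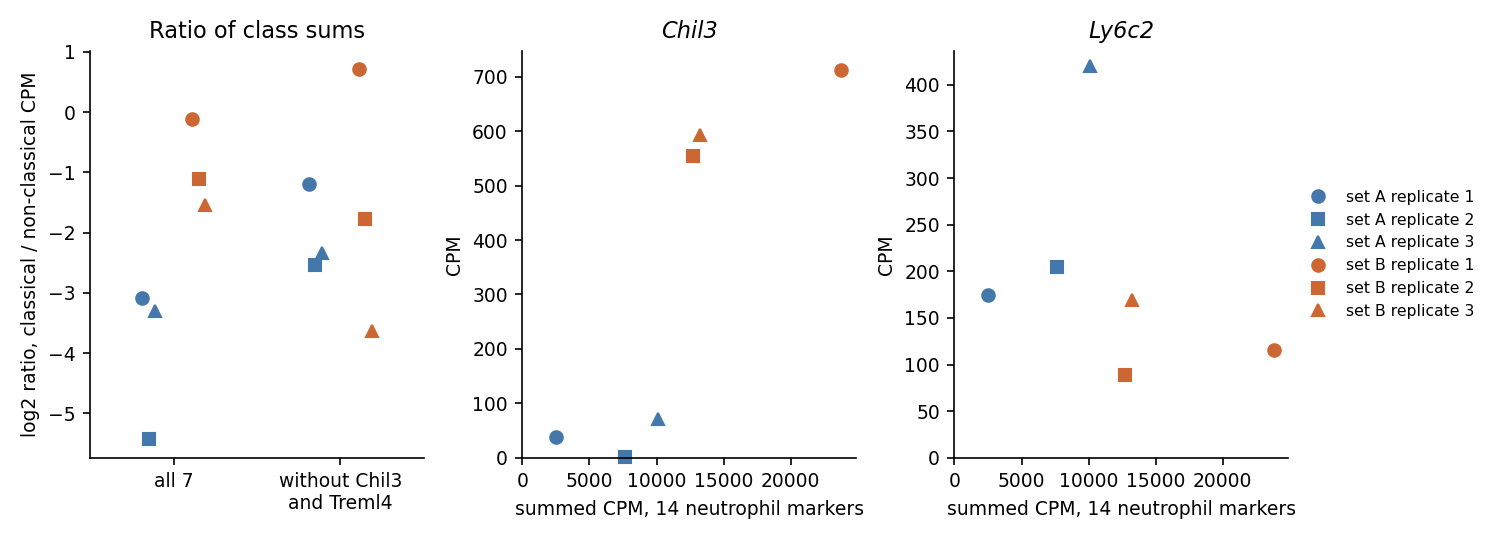
Left, log2 ratio of summed classical to summed non-classical CPM in each library, with all 7 genes and without Chil3 and Treml4; middle and right, CPM of Chil3 and of Ly6c2 against the summed CPM of 14 neutrophil markers, each point 1 library. The sets separate with all 7 genes and overlap without the 2, and Chil3 is high in B while Ly6c2 is low there.

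A wider list of 22 classical monocyte genes gave 20 that could be tested, and 0 of these passed by edgeR, DESeq2 or limma-voom. By edgeR 1 of the 20 was higher at an unadjusted p under 0.05, beside 5.05% of all tested genes. With no filter DESeq2 called 1 gene of the list higher, Vcan, beside 11.8%; it had 320 and 145 counts in B replicates 1 and 3 and 0 in the other 4 libraries. Fitted values lay above 0 for 14 and below 0 for 6, beside 48.0% above 0 among all tested genes, and the median was 0.34. Ly6c2, which encodes the antigen that defines classical monocytes, had lower values in B, with 175, 205 and 420 CPM in A and 116, 88.4 and 169 in B (log2 difference -1.16, SE 0.50, edgeR adjusted p = 0.826). Hp (haptoglobin) ran the other way, at 174, 583 and 686 CPM in A and 1283, 908 and 1383 in B (log2 difference 1.25, SE 0.47, edgeR adjusted p = 0.660). Neither gene overlapped between the sets, and the 2 stood on opposite sides. Of the 20 tested, 2 were higher in B without overlap and 1 was lower, beside 10.2% and 3.91% of all tested genes. Nothing particular to the list is read from these counts. Mmp8, which is also in the neutrophil list, and Ccr1 had fitted values of 2.16 and 1.42 with overlap.

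Of 30 further non-classical genes 29 were tested, 0 passed by edgeR and 1 was lower at an unadjusted p under 0.05, beside 1.32% of all tested genes. There were 11 fitted values above 0, beside 48.0% of all tested genes, and 18 below, with a median of -0.26. That gene was Ear2, an eosinophil-associated ribonuclease abundant in non-classical monocytes, at 1621, 853 and 1384 CPM in A and 380, 526 and 1021 in B (log2 difference -1.10, SE 0.46, edgeR adjusted p = 0.785). DESeq2 called it lower in B (adjusted p = 0.0143, beside 1.13% of all tested genes called lower), the 1 call of the list, and did not with no filter (adjusted p = 1.000). Nr4a1, the nuclear receptor on which these cells depend, measured 833, 648 and 1102 CPM in A and 654, 799 and 850 in B (log2 difference -0.26, SE 0.24, edgeR adjusted p = 1.000). The 30 genes summed to 11471 to 15876 CPM in A and 11930 to 16888 in B, so their total overlapped between the sets.

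Among 35 tested genes shared by monocytes 0 passed by edgeR, 3 were lower at an unadjusted p under 0.05, beside 1.32% of all tested genes, and the median was -0.05. Lyz1 and Cybb were among these 3, and both had lower mean values in B. Cybb, the catalytic subunit of the phagocyte oxidase, averaged 853 ± 217 CPM over the A libraries and 580 ± 44.5 over those of B (SD, n = 3), with overlap. Among 23 tested regulators, a list that shares Cebpb, Nr4a1 and other genes with the lists above, 7 fitted values lay above 0 and 16 below, beside 48.0% above 0 among all tested genes (median -0.59, 0 passed by edgeR, 1 was lower at an unadjusted p under 0.05, beside 1.32%). Irf8, which directs myeloid precursors towards monocytes and dendritic cells, stood at 457, 487 and 219 CPM in A and 276, 183 and 188 in B, with overlap (log2 difference -0.97, SE 0.43, edgeR adjusted p = 0.871).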

How the data were processed

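The deposited table holds raw counts per Ensembl gene, 1 column per library, which the authors did not normalize or pool. The submitters' processing notes name cutadapt 1.9, HISAT2 2.2.1 and DESeq2 without roles. The sources used here name no read counter, genome build, annotation or strand setting. Per the labels' protocols libraries were made by Smart-seq2, which carries no molecular identifiers, so counts are not independent molecules. Low counts were more often 4 (5211 values) than 3 (819) or 5 (660).

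Symbols were matched for 55141 of 55401 identifiers. CPM used all counts of a library. Set B was compared with set A by edgeR 4.0.16 in R 4.3.3 (filterByExpr, TMM, glmQLFit with robust=TRUE, glmQLFTest, Benjamini-Hochberg adjustment over 9196 genes, threshold 0.05). SEs were derived from each log2 fold change and its F statistic (|log2 FC| / √F). DESeq2 1.42.0 and limma-voom (limma 3.58.1) ran on the same genes, and DESeq2 also with no filter. Scripts were tested on simulated data. Coding and transcript lengths came from GENCODE M21.

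Some genes of the wider lists are not reported here by name. Members and lists were chosen with earlier results of these data known. Named genes are the 10 members, their near copies, the 4 smallest p of each wider list and textbook partners. Il34, and the genes named from lists of other cells or in the closing section, were chosen after their values were seen.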

Additional observations from a re-analysis of the deposited data

How the results depend on the processing

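The count of genes called was 2 by edgeR and stayed at 2 with RLE scaling, library size alone, no filter, robust=FALSE and counts divided by 4, and was 3 with the stricter filter. It was 595 by DESeq2, 1214 by DESeq2 with no filter (added after seeing the data), 202 by limma-voom, 0 with a replicate block and 0 to 1 with 1 library left out. The replicate numbers did not pair the libraries (correlations of 0.0280, -0.0241 and 0.0261 for numbers 1, 2 and 3 over 9196 genes), and not every library correlated best with its own number. Among the 9 tested members the replicate block changed no call and turned the sign of Ace (-0.07).

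Cebpb also turned with library size alone (0.06) and by limma-voom (0.05). It ranged from -0.17 to 0.08 over the omissions of 1 library, Ccr2 from -0.82 to 0.43, Cx3cr1 from -1.14 to 3.15, Ace from -0.17 to 0.84 and Spn from -0.68 to 0.16 (0.16 without A replicate 1). Lyz2 (-0.70 to -0.43), Csf1r (-0.60 to -0.35), Treml4 (-0.34 to -0.10) and Chil3 (3.42 to 4.75) kept their sign in these omissions. Among other genes, Ccl7 turned without A replicate 3 (-5.40 to 0.89 over the omissions), Maf without A replicate 2 (-7.01 to 2.30) and with the replicate block (0.57), and Csf1 without B replicate 2 (-1.39 to 8.0). Ccl2 turned by limma-voom (-0.63), with the block (-0.31) and without A replicate 2 or B replicate 1 (-1.00 to 0.56 over the omissions). The cause was not tested.

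The difference in the log2 ratio of classical to non-classical sums, 3.01, was 2.27 to 3.44 over omissions of 1 library and 0.45 without the most abundant member of each class, by construction a ratio without Chil3 and Treml4. A length scaling by the longest transcript was also added after seeing the data. The median over all tested genes was -0.16 with RLE scaling and 0.87 by limma-voom, beside -0.06. Depth limits F13a1 in set A, where 3 counts stand for 0.0544 to 0.0650 CPM.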

Other observations

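Of the 23 tested regulators of monocyte development, 5 had no overlap between the sets, 2 of them higher and 3 lower in B (10.2% of all tested genes were higher in B without overlap and 3.91% lower), and 0 of them passed by edgeR. Cebpd had 0.308, 29.5 and 58.5 CPM in A against 196, 149 and 93.5 in B, and Notch2, a receptor needed by several myeloid subsets, had 207, 145 and 222 CPM in A against 317, 296 and 260 in B. Stat3 stood at 135, 133 and 228 CPM in A and 59.6, 114 and 91.9 in B. Hes1, a target of Notch signalling, measured 95.9, 71.4 and 110 CPM in A and 26.0, 71.1 and 64.1 in B. The log2 difference was 0.50 for Notch2 (SE 0.34, edgeR unadjusted p = 0.185). For Hes1 it was -0.88 (SE 0.89, edgeR unadjusted p = 0.352), so no contrast between receptor and target is read.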
